A study of Homo sapiens with 3 samples.

Results

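The genes described here build and start the DNA replication fork or drive cells from G1 into S phase. They are the 38 genes of a list of replication and G1/S genes, found by symbol in a count table of 60554 genes, and all 38 passed the filter on low counts that left 17801 genes. RNA was sequenced from KYSE30 cells, a standard human line of esophageal squamous carcinoma, to ask what differs when the small nucleolar RNA SNORD12B is depleted. There were 3 stable lines with 1 library each: a control line, called a vector in its genotype label and a non-targeting scrambled shRNA in the protocol, and 2 lines that carry different shRNAs against SNORD12B in pLKO.1-blast. All 3 lines came from lentiviral transduction, were selected with blasticidin for 2 weeks and grew in medium with 10% serum. No line had a replicate culture, and the labels do not say whether a line is 1 clone or a pool.

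Replication is prepared in G1, when the origin recognition complex, CDC6 and CDT1 load the ring of MCM2 to MCM7 onto DNA. At the start of S phase the kinase CDC7 with its partner DBF4, together with CDC45, GINS and MCM10, turns that ring into a moving helicase, which polymerases, the sliding clamp PCNA and its loader then follow. Many of these genes are known targets of E2F factors, whose activity cyclin E kinase promotes as cells enter S phase.

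Libraries held between 15146805 and 17336936 counts. SNORD12B itself was counted 7 times in the control, 15 times with the label shRNA 1 and 1 time with the label shRNA 2. With the label shRNA 1 its ratio to the control was 2.16 (95% exact interval 0.831 to 6.28, counting error only, as for all ratio intervals here). That value runs against the label, but its interval holds 1. With the label shRNA 2 the ratio was 0.126 (0.0028 to 0.982). Counts this few do not show whether SNORD12B was depleted in the library labelled shRNA 1. For the library labelled shRNA 2 the low ratio rests on 1 count against 7, so depletion is only weakly measured there. Every direction below is therefore that of a labelled library. Of 9 squamous markers, 8 exceeded 1 CPM (counts scaled to library size by TMM) in all 3 libraries, the defining keratin KRT5 being the exception with 1 to 3 counts, and their summed level was 1805, 1001 and 1524 CPM. All 5 general epithelial markers were present. Immune markers summed to 1.31 to 2.07 CPM, endothelial markers to 1.45 to 5.92 CPM, and fibroblast markers to 9.47 to 16.02 CPM, with COL1A2, DCN and LUM at 0 counts in every library.

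Replication and G1/S genes were lower in the library labelled shRNA 2 than in either other library, and slightly higher in the library labelled shRNA 1 than in the control. Together the 38 genes made up 3293 CPM in the control, 3719 CPM with the label shRNA 1 and 1755 CPM with the label shRNA 2. For 36 of them the control lay between the shRNA libraries, shRNA 1 above and shRNA 2 below, an order that 23.3% of all tested genes had. Some of the 36 were hardly above the control with the label shRNA 1, with log2 ratios of 0.003 for MCM2 and RFC5 and 0.004 for CHAF1A. The exceptions were CDC7, above the control in both, and RFC2, below it in both, whereas among all tested genes 28.2% lay above in both and 27% below in both. The median log2 ratio to the control, computed on CPM with a prior count of 2, was 0.25 with the label shRNA 1 and -0.77 with the label shRNA 2, against 0.01 and 0.00 over all tested genes. At least 1.5-fold lower than the control with the label shRNA 2 were 28 of 38, against 9.92% of tested genes, and 10 of 38 were at least 2-fold lower, against 3.46%. None was at least 1.5-fold higher there, against 9.38%. With the label shRNA 1 the 3 genes at least 1.5-fold higher were MCM10, CCNE2 and E2F1, a share below the 10.8% of tested genes. By 2-fold 0 were higher, against 3.74%, and 0 were at least 1.5-fold lower, against 12.7%. Where 3 values follow a gene, they stand in the order control, label shRNA 1 and label shRNA 2. Each ratio compares 1 library with 1 library and has no replicate check. The 38 genes and the other gene lists were chosen with earlier results of these data known. The shares of all tested genes set beside them are therefore a description and not a test. In bulk RNA, a smaller share of cells in S phase and less of these mRNAs in each cell cannot be told apart.

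**Figure D1:**
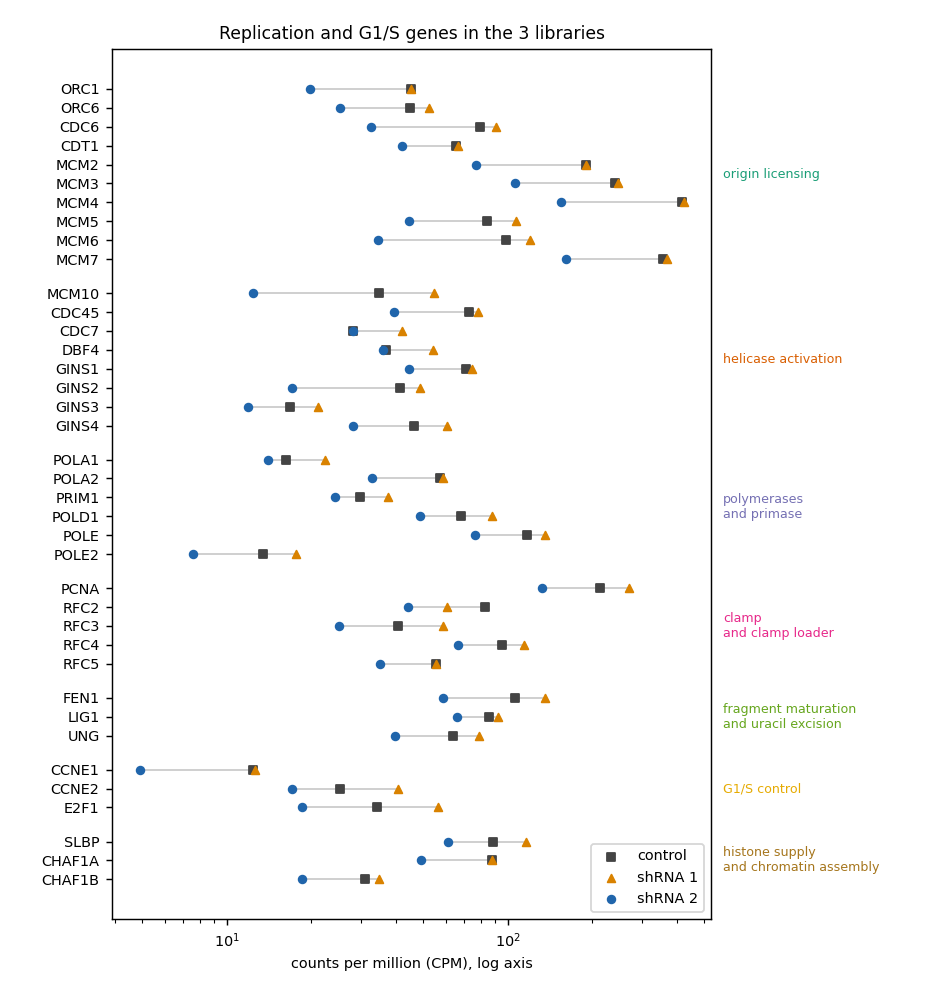
Level of each of the 38 genes in CPM on a log axis, grouped by role, with a square for the control, a triangle for the library labelled shRNA 1 and a circle for the library labelled shRNA 2 (1 library each, no error bars). The circle is leftmost for every gene except CDC7, where it lies almost on the square, and for 36 genes the square lies between the other marks.

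The shRNA lines can also be set against each other, without the control. All 38 genes were lower with the label shRNA 2 than with the label shRNA 1, 34 of 38 by at least 1.5-fold, against 14.8% of tested genes, and 19 of 38 by at least 2-fold, against 5.54%. The median log2 ratio was -1.01, where the median of all tested genes was 0.00. In each of the 38 the counting interval of the ratio lay below 1, as it did for 28.4% of tested genes. Against the control, the interval lay below 1 for 35 genes with the label shRNA 2 (24.2% of tested genes). With the label shRNA 1 it lay above 1 for 23 genes (25.6% of tested genes), held 1 for 14 and lay below 1 for RFC2 alone (24.1% of tested genes). The reads thus separate most of these values from equality, but they do not measure how far cultures of 1 line vary. Counting intervals narrow as counts rise, and the tested genes include some with few counts, such as CDKN1C with 17, 10 and 57. The shares of tested genes given for these intervals are therefore not matched for depth.

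In the planned test of both shRNA lines against the control, edgeR's quasi-likelihood test with Benjamini-Hochberg adjustment over all 17801 genes, none of the 38 genes passed. The background was 0% of tested genes higher and 0% lower at an adjusted p under 0.05, with 73 higher and 164 lower at an unadjusted p under 0.05, of which 0 were among the 38. The smallest unadjusted p among them by edgeR was 0.0855, for RFC2, with a log2 fold change of -0.66 (SE 0.34), and every member had an adjusted p of 1. DESeq2, limma-voom and edgeR's likelihood ratio test also called 0 of the 38. All of these tests average the 2 shRNA lines and take the spread between them as error. For 36 of the 38 genes the lines lay on opposite sides of the control, so these tests cannot speak to either line alone.

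Since many of these genes are known E2F targets, their promoters were searched for letters that known cell cycle factors bind. The list holds genes of known function, so the share of promoters with a motif is no result about the libraries. RefSeq promoters (GRCh38.p14, 250 bases before to 50 after the start) were matched by symbol for 34 of the 38 genes, all but MCM4, MCM5, GINS4 and CCNE2. An E2F-type motif, TTTCCCGC, TTTCGCGC, TTTGCCGC or TTTGGCGC on either strand, was found in 17 of 34, against 3.33% of 27305 promoters of all genes and 5.11% of those of tested genes. The windows below are those of the gene with the lowest ratio of the shRNA 2 library to the control in each role that had such a motif upstream of the start, with 30 bases on each side where they stay upstream. Capitals mark the motif.
MCM6: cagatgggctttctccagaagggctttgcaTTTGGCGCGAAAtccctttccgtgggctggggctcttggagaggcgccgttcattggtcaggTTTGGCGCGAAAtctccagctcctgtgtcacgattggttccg
GINS2: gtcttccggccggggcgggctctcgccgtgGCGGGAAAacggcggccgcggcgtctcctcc
POLA2: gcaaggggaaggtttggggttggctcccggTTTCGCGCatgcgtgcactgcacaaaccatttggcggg
PCNA: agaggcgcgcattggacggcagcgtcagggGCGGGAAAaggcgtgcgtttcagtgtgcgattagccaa
LIG1: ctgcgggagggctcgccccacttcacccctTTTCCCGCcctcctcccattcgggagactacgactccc
E2F1: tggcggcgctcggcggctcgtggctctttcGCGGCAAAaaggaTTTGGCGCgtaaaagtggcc
Each is written 5′ to 3′ along the strand of the gene. They lie at chr2:135876492-135876625 (minus strand), chr16:85688955-85689015 (minus strand), chr11:65261879-65261946 (plus strand), chr20:5126644-5126711 (minus strand), chr19:48170421-48170488 (minus strand) and chr20:33686386-33686448 (minus strand). Upstream here refers to the RefSeq start. In the annotation used for the counts, the windows of GINS2, POLA2 and LIG1 lie within the gene and that of E2F1 reaches into it. In MCM6 the 4 matches are 2 overlapping pairs, in each of which TTTGGCGC and, on the other strand, TTTCGCGC share bases. The motif was present in 6 of 8 licensing promoters, 4 of 6 polymerase and primase promoters and 0 of 3 promoters of histone supply and chromatin assembly genes. The 17 with the motif had a median log2 ratio to the control of 0.21 with the label shRNA 1 and -0.80 with the label shRNA 2, and the 17 without it 0.26 and -0.75. Between the shRNA libraries, shRNA 2 to shRNA 1, the medians were -1.19 with the motif and -0.90 without it, beside -0.12 and 0.01 over all tested genes with a promoter. The difference between genes with and without the motif was not tested. Of those tested genes, 9.95% of the 593 with the motif and 8.19% of the 11014 without it were at least 1.5-fold lower than the control with the label shRNA 2. The letters CCAAT occurred in 18 of 34 promoters, against 35.7% of all promoters, and the mitotic CHR element, TTTGAA or TTCGAA, in 2 of 34, against 16.6%. A match of letters is a description and not a binding site.

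Licensing genes were the lowest group with the label shRNA 2. All 10 were at least 1.5-fold lower than the control there and 7 were at least 2-fold lower, with a median log2 ratio of -1.18 and a range from -1.51 to -0.64. With the label shRNA 1 the same 10 had a median of 0.04 and reached at most 0.34. MCM6 (ENSG00000076003.4; chromosome 2, 135839626 to 135876426, minus strand, hg38) had 98.2 CPM in the control, 119.9 CPM with the label shRNA 1 and 34.4 CPM with the label shRNA 2. The last is a ratio to the control of 0.35 (exact interval 0.318 to 0.385). This subunit had the lowest such ratio of all 38 genes. MCM4 was at 417.1, 424 and 154.4 CPM in these libraries, and MCM2 at 189.2, 189.6 and 77.0 CPM. For both, the control and the library labelled shRNA 1 differed by less than counting error, with intervals of the ratio from 0.982 to 1.05 and from 0.952 to 1.06. MCM3 had 240, 247 and 105.7 CPM, and MCM7 had 356.8, 367.6 and 161.3 CPM. MCM5 was the helicase subunit least low with the label shRNA 2, at 84.5, 107.1 and 44.4 CPM, a ratio to the control of 0.525 (0.48 to 0.575).

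The loaders of that ring were lower as well with the label shRNA 2. CDC6, the ATPase that brings MCM rings to origins, was at 79.7 CPM in the control, 90.9 CPM with the label shRNA 1 and 32.5 CPM with the label shRNA 2. ORC1, the largest subunit of the origin recognition complex, was at 45.1, 45.4 and 19.8 CPM. Its partner ORC6 had 44.9, 52.3 and 25.2 CPM. CDT1, which carries the MCM ring to origins, was closest to the control within the licensing group, at 65.4, 66.7 and 41.9 CPM. Its ratio of the shRNA 2 library to the control was 0.641 (0.582 to 0.706). The library labelled shRNA 2 was thus the low one for all of these loaders. With the label shRNA 1, CDC6 and ORC6 were above the control beyond counting error, at ratios of 1.14 (1.06 to 1.23) and 1.16 (1.05 to 1.29). For ORC1 and CDT1 the interval of that ratio held 1.

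The other members of the origin recognition complex, from a list of 38 further replication factors, looked different. ORC2 was at 24.5, 27.6 and 21.7 CPM, ORC3 at 29.8, 45.8 and 31.6 CPM, ORC4 at 32.5, 42.4 and 31.1 CPM and ORC5 at 30.5, 41.8 and 24.8 CPM. These genes are named after their values were seen. Their log2 ratios of shRNA 2 to control ran from -0.30 (ORC5) to 0.08 (ORC3), against -1.18 for ORC1 and -0.83 for ORC6.

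Levels of the MCM subunits, which form a ring with 1 copy of each, can be compared per length of exon as TPM, reads per exon length scaled to the same total in each library. In the control, MCM7 was highest at 241 TPM, followed by MCM3 at 194.8, MCM4 at 181.1, MCM2 at 114.4, MCM6 at 70.6 and MCM5 at 34.1 TPM. The order of the 6 was the same with either shRNA label. The highest was 7.07 times the lowest in the control, 5.75 times with the label shRNA 1 and 6.08 times with the label shRNA 2. Lengths are those of all exons of a gene merged, so a gene with long rare exons reads too low.

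**Figure D2:**
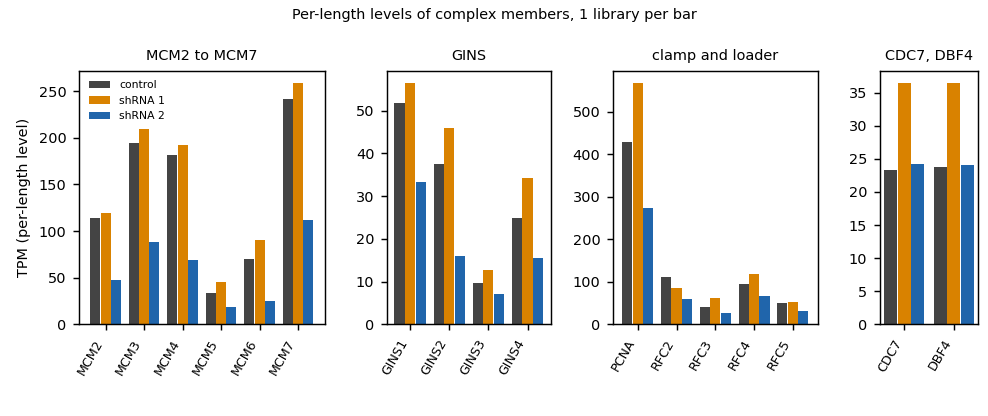
Per-length levels (TPM, linear axes from 0, a scale of its own in each panel) of MCM2 to MCM7, the GINS subunits, PCNA with its loader subunits, and CDC7 with DBF4, 1 bar per library and no error bars. The library labelled shRNA 2 has the shortest bar in the first 3 panels, and in the last it is level with the control while the library labelled shRNA 1 is highest.

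Genes that turn the loaded ring into a helicase were split. MCM10, a scaffold needed to start unwinding, had the widest spread of all 38 genes. It was at 34.8 CPM in the control, 54.6 CPM with the label shRNA 1 and 12.4 CPM with the label shRNA 2, so that the shRNA libraries differed by a ratio of 0.227 (0.194 to 0.263). MCM10 (chromosome 10, 13161554 to 13211104, plus strand, hg38) was the highest of this group relative to the control in 1 line and the lowest in the other. GINS2, a subunit of the helicase cofactor GINS, was at 41.3, 48.7 and 17.1 CPM. Its partners were less low with the label shRNA 2. GINS1 had 71.0, 74.4 and 44.4 CPM, GINS3 had 16.8, 21.2 and 11.8 CPM and GINS4 had 46.2, 60.8 and 28.1 CPM. CDC45, the third part of the helicase, was at 72.5, 78.5 and 39.4 CPM. The order of the 4 GINS genes by TPM, with GINS1 first, then GINS2, GINS4 and GINS3, was shared by all 3 libraries, though GINS2 and GINS4 were nearly level with the label shRNA 2 at 15.96 and 15.64 TPM.

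The kinase that fires origins did not share this pattern against the control. CDC7, its catalytic subunit, was at 28.0 CPM in the control, 42.0 CPM with the label shRNA 1 and 28.2 CPM with the label shRNA 2. DBF4, its activating subunit, had 36.8, 54.0 and 36.1 CPM. For both genes the control and the library labelled shRNA 2 were within counting error of each other, with intervals of the ratio from 0.882 to 1.15 for CDC7 and from 0.873 to 1.1 for DBF4. Both were higher with the label shRNA 1, by ratios to the control of 1.5 and 1.47, which for CDC7 is just under the 1.5-fold limit on the log2 scale used here, at 0.58. Both were therefore lower with the label shRNA 2 than with the label shRNA 1. Those ratios were 0.67 (0.595 to 0.755) for CDC7 and 0.668 (0.601 to 0.742) for DBF4. Per length, the subunits were nearly equal to each other in each library, at 23.3 and 23.8 TPM in the control, 36.5 and 36.4 TPM with the label shRNA 1 and 24.2 and 24.0 TPM with the label shRNA 2.

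**Figure D3:**
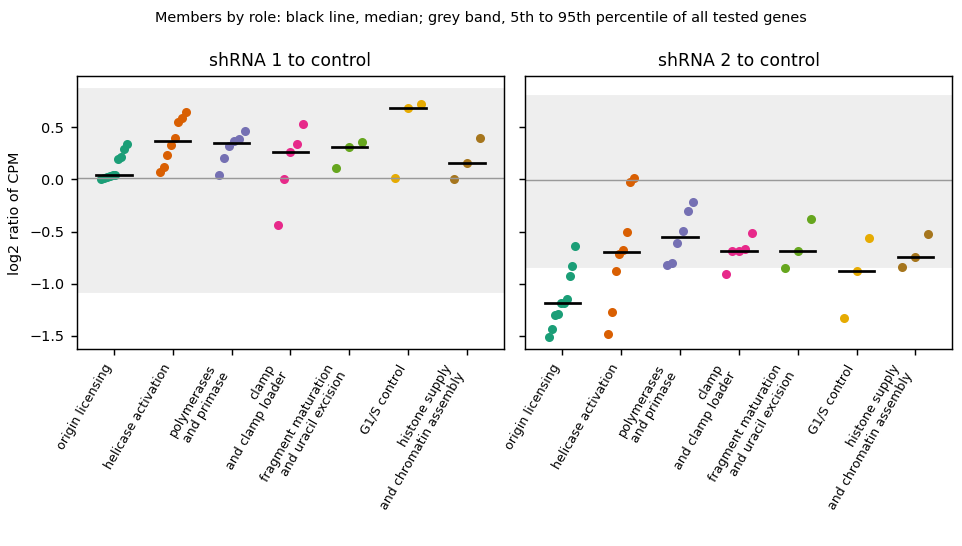
Log2 ratio of CPM to the control for the library labelled shRNA 1 (left) and shRNA 2 (right), 1 point per gene grouped by role, with black lines at the medians and a grey band from the 5th to the 95th percentile of all tested genes. On the right, licensing genes sit lowest with a median of -1.18, while CDC7 and DBF4 lie at the line of all genes; both panels share the same control library.

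Polymerases and primase were lower with the label shRNA 2 by smaller amounts. The median log2 ratio to the control of the 6 genes was -0.55, and 3 of them were at least 1.5-fold lower. POLE2, an accessory subunit of the leading-strand polymerase epsilon, was at 13.5, 17.6 and 7.59 CPM, and POLE, its catalytic subunit, at 117.2, 135.4 and 76.6 CPM. POLA2, the accessory subunit of the priming polymerase alpha, had 57.4, 58.9 and 32.9 CPM. POLA1, its catalytic subunit, was nearest the control, at 16.3, 22.4 and 14.0 CPM. Here the ratio of the shRNA 2 library to the control was 0.858 with an interval from 0.717 to 1.03, a difference not detectable at this depth. PRIM1, the catalytic primase subunit, was at 29.9, 37.4 and 24.3 CPM, and POLD1, the catalytic subunit of the lagging-strand polymerase delta, at 68.3, 88.1 and 48.5 CPM. Subunits of polymerase alpha thus differed from each other with the label shRNA 2, POLA2 lying at a log2 ratio of -0.80 and POLA1 at -0.22.

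Clamp and clamp loader genes held the 1 gene that was lower than the control with both labels. RFC2, a small subunit of the loader, was at 82.8 CPM in the control, 61.0 CPM with the label shRNA 1 and 44.2 CPM with the label shRNA 2. Its ratios to the control were 0.736 (0.676 to 0.802) and 0.534 (0.488 to 0.584). The other small subunits placed the control in the middle or level with the label shRNA 1. RFC3 had 40.5, 58.6 and 25.1 CPM, RFC4 had 95.4, 114.2 and 66.7 CPM and RFC5 had 55.6, 55.7 and 34.95 CPM. PCNA, the sliding clamp that holds polymerases on DNA, was at 213.5, 270.7 and 132.4 CPM. By TPM it was the most abundant of the 38 in each library, at 430.1, 568.2 and 274.7 TPM.

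Genes that finish the new strands were lower with the label shRNA 2 too, with LIG1 the least so. FEN1, the nuclease that trims flaps between lagging-strand fragments, was at 105.6, 135.5 and 58.6 CPM. UNG, which removes uracil from new DNA, had 63.9, 79.1 and 39.6 CPM. LIG1, the ligase that seals the fragments, had 85.6, 92.2 and 65.9 CPM, a ratio of the shRNA 2 library to the control of 0.77 (0.711 to 0.834). Of these 3 genes FEN1 and UNG were at least 1.5-fold lower and LIG1 was not.

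Among regulators of S-phase entry, cyclin E1 and E2F1 differed in where the control lay. CCNE1 (chromosome 19, 29811898 to 29824308, plus strand, hg38) was at 12.4 CPM in the control, 12.6 CPM with the label shRNA 1 and 4.89 CPM with the label shRNA 2. Its counts were low, at 191, 191 and 85, which leaves the ratio of the shRNA 2 library to the control between 0.301 and 0.51. E2F1, the transcription factor that switches on S-phase genes, was at 34.2, 56.4 and 18.6 CPM, high with the label shRNA 1 and low with the label shRNA 2. CCNE2, the second cyclin E, had 25.2, 40.6 and 17.1 CPM. Exons of INTS8 on the opposite strand overlap 37.14% of its exonic bases, so its count is uncertain. Such overlap was 23.56% for GINS4, 10.93% for GINS3 and 10.65% for RFC5, and, of genes named below, 18.18% for RBL2 and 10.29% for CCND1. Whether reads of the opposite strand entered the counts depends on the library kit, which no source used here names. CCNE1, E2F1 and CCNE2 were all at least 2-fold lower with the label shRNA 2 than with the label shRNA 1.

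Histone supply and chromatin assembly genes lay in the middle of the range. SLBP, which binds the stem-loop of histone mRNAs, was at 88.4, 115.9 and 61.5 CPM. CHAF1A and CHAF1B, subunits of the factor that places histones behind the fork, were at 87.7, 87.9 and 49.0 CPM and at 31.1, 34.7 and 18.5 CPM. Relative to the control, the log2 ratios with the label shRNA 2 were -0.52, -0.84 and -0.75. For both chromatin assembly subunits the control and the library labelled shRNA 1 were within counting error, with intervals of the ratio from 0.929 to 1.08 and from 0.984 to 1.27.

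Other genes of replication and S-phase entry, from lists of which all but CCND2 passed the filter, pointed the same way but lay closer to the control. Of 38 further replication factors, 34 were below the control with the label shRNA 2, against 50.3% of tested genes, and 10 were at least 1.5-fold lower, against 9.92%, with a median log2 ratio of -0.38. RECQL4, a helicase-like factor of replication start, was at 90.2, 112.4 and 50.1 CPM, and RPA2, a subunit of the single-strand binding protein, at 36.9, 39.5 and 20.5 CPM. The fork protection genes TIPIN and CLSPN had the highest ratios to the control of this list with the label shRNA 1, at 12.6, 25.6 and 8.68 CPM and at 40.4, 74.7 and 27.8 CPM. RNASEH2B and MCMBP had log2 ratios to the control of -0.73 and -0.72 with the label shRNA 2. Of 11 genes of nucleotide supply, 10 were below the control with the label shRNA 2 (50.3% of tested genes) and 3 were at least 1.5-fold lower (9.92%). These were the nucleoside transporter gene SLC29A1, at 50.5, 70.6 and 22.9 CPM, the purine synthesis gene PAICS, at 162.4, 223.2 and 85.8 CPM, and the pyrimidine synthesis gene CAD, at 70.6, 104 and 39.7 CPM.

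Further regulators of G1 and S phase showed both directions. Of 28 measured genes, 21 were below the control with the label shRNA 2, 9 of them by at least 1.5-fold and 4 by at least 2-fold. The shares of all tested genes were 50.3%, 9.92% and 3.46%. CDC25A, a phosphatase that activates cyclin E kinase, had the lowest ratio of shRNA 2 to control in this list, at 35.7, 44.4 and 13.5 CPM. DTL, which directs the destruction of CDT1, had 45.2, 65.6 and 21.5 CPM, UHRF1, a maintenance factor of DNA methylation, had 133.8, 178 and 64.9 CPM, and E2F2 had 18.3, 14.99 and 8.74 CPM. Below the control with both labels were 7 of the 28, E2F2 among them, against 27% of tested genes. TFDP2, a partner of E2F factors, was another of these, at 58.1, 39.9 and 45.4 CPM. The reverse order, shRNA 1 below the control and shRNA 2 above it, was that of 4 of the 28, against 21.5% of tested genes; these genes are named after their values were seen. CDKN1A, a cyclin kinase inhibitor, was at 194.1, 136.4 and 234.9 CPM, CDKN1B, its relative, at 96.9, 69.0 and 101 CPM, and the pocket protein gene RBL2 at 116.7, 83.2 and 130.3 CPM. The fourth, the inhibitor CDKN1C, had only 17, 10 and 57 counts. For CDKN1B the interval of the ratio of shRNA 2 to control, 0.972 to 1.12, held 1. Other genes known to restrain S-phase entry did not have this order, among them RB1 at 49.9, 52.7 and 48.4 CPM and RBL1 at 23.4, 26.5 and 22.1 CPM. Also named after their values were seen, MYC, an activator of growth genes, was at 131.2, 143.5 and 74.0 CPM, and CCND1, the G1 cyclin D1, at 611.6, 664.1 and 681.6 CPM.

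Mitosis genes, which also mark dividing cells, were as a group not lower than the control with the label shRNA 2. Below the control there were 11 of 28, against 50.3% of tested genes. Of 28 genes, 17 were above the control with both labels, against 28.2% of tested genes, and 0 were at least 1.5-fold lower with the label shRNA 2, against 9.92%, where 28 of the 38 replication and G1/S genes were. Their median log2 ratio to the control was 0.28 with the label shRNA 1 and 0.10 with the label shRNA 2. TOP2A, which untangles sister DNA, was at 448.1, 552.2 and 602.3 CPM, and CENPF, a kinetochore protein, at 131.8, 201.4 and 181.4 CPM. CENPE, a kinetochore motor, had 33.6, 58.1 and 45.9 CPM and ANLN, a scaffold of cell division, 340.8, 575.4 and 444.2 CPM. MAD2L1, a spindle checkpoint gene, had the lowest ratio of shRNA 2 to control in this list, at 58.2, 74.3 and 41.3 CPM. Between the shRNA libraries, without the control, the median log2 ratio of mitosis genes was -0.22, against -1.01 for the replication and G1/S genes, with ranges from -0.84 to 0.13 and from -2.13 to -0.46 that overlap at their ends. Of the 28 mitosis genes, 24 were lower with the label shRNA 2 than with the label shRNA 1, as were 8911 of 17801 tested genes. The CHR letters were in 19 of 23 promoters of mitosis genes and an E2F-type motif in 2 of 23. The difference between the lists was not tested.

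**Figure D4:**
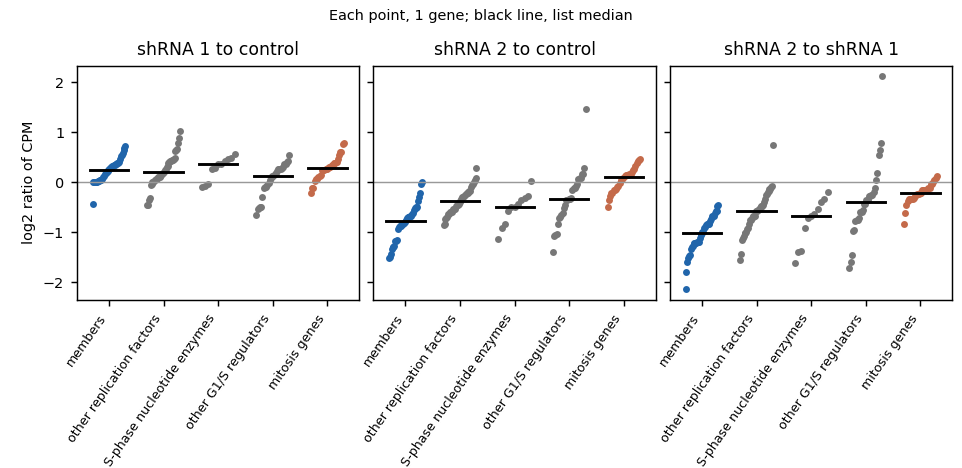
Log2 ratio of CPM for the 38 replication and G1/S genes (blue), other replication factors, genes of nucleotide supply, other G1/S regulators (grey) and mitosis genes (red) in 3 comparisons of single libraries, 1 point per gene with black lines at the medians. In the middle panel the blue points have a median of -0.77 and the red points a median of 0.10; the first and second panels share the control.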

How the data were processed

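Gene counts of 3 libraries were used. Per the file headers, the authors made the deposited raw counts with featureCounts 1.6.4 on an hg38 annotation with strand option 1. The submitters' processing notes name TopHat2, HTSeq and hg19, which differs, and no source used here names the library kit. Of the 60554 gene identifiers, 52179 are also in GENCODE 29 (hg38), version included, and all of these have the same position there. They include 33 of the 38 genes described, and the position of the other 5 was not checked. Of 60554 identifiers, 56558 matched a symbol.

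The analysis ran in R 4.3.3 and used edgeR 4.0.16 (filterByExpr, TMM), limma 3.58.1 and DESeq2 1.42.0. The quasi-likelihood fit had 1 residual degree of freedom, and its SE is worked back from the F statistic. Log2 ratios of single libraries use a prior count of 2, ratio intervals are exact conditional intervals at 95 percent for counting error only, and TPM was computed from the deposited exon lengths. The members and gene lists were chosen with earlier results of these data known. All members are named, and of each other list up to 4 genes with the largest absolute log2 ratio of shRNA 2 to control and 2 of shRNA 1 to control among genes of at least 5 CPM, of which 1 is not reported here.

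Alternatives covered the scaling, the filter, the test, the prior count, thinned counts, the fold threshold and leaving out each shRNA line. A median of ratios was taken as moved when it shifted by more than the half-width of the counting interval for the genes' summed counts, 0.017 to 0.021 on the log2 scale. Members without exons on the opposite strand were added after seeing the data.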

Additional observations from a re-analysis of the deposited data

Results flagged for a closer look

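Set against the control, the replication and G1/S genes lay on opposite sides of it in the 2 shRNA lines, at a median log2 ratio of 0.25 with the label shRNA 1 and -0.77 with the label shRNA 2. The difference was not tested, since each line is 1 library. Both values share the control, and the ratio between the shRNA libraries, which does not use it, had a median of -1.01. Squamous markers summed to 1805 CPM in the control, 1001 CPM with the label shRNA 1 and 1524 CPM with the label shRNA 2. Single markers differed from that sum, SOX2 being at 104.1, 12.2 and 38.9 CPM and DSG3 at 92.4, 61.2 and 129.2 CPM. The mitochondrial share of counts was 4.6, 3.94 and 4.25 percent. The part of the markers or of the mitochondrial share in the result was not tested.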

How the results depend on the processing

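The medians of the 38 genes kept their sign under every scaling, prior count and thinning tried. With upper-quartile factors they were 0.22 for shRNA 1 to control and -0.98 for shRNA 2 to shRNA 1. In 25 genes without exons on the opposite strand they stood at 0.22, -0.82 and -1.03 for shRNA 1 to control, shRNA 2 to control and shRNA 2 to shRNA 1. A threshold of 2-fold instead of 1.5-fold left 10 genes lower with the label shRNA 2 than in the control, 19 lower than with the label shRNA 1, and 0 higher with the label shRNA 1 than in the control. The mean log2 fold change of both lines was -0.18, and the sign depended on the line: leaving out 1 shRNA line gave -0.80 to 0.24, the negative value without shRNA 1. Over all genes, where the quasi-likelihood test called 0 higher and 0 lower, the calls were 4 higher and 37 lower with no filter, 2 and 36 with the likelihood ratio test, 1 and 14 with DESeq2, 0 and 1 with limma-voom, and 0 and 1 with library totals. The cause was not tested. In each of these, 0 of the 38 genes were called. Of the mean log2 fold changes of single genes, those of POLD1, RFC3, E2F1 and SLBP, uncalled in each test, changed sign: POLD1 was at -0.001 with DESeq2 size factors, -0.001 with the DESeq2 test and -0.067 with limma-voom, and with limma-voom RFC3 was at -0.09, E2F1 at -0.099 and SLBP at -0.07. The cause of these sign changes was not tested either. No paired analysis was possible because the control is a single library. Depth limits POLE2, CCNE1, POLA1 and GINS3 most, which had the fewest counts, at most 341 in any library.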
